A study of Mus musculus with 30 samples.

Results

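The subject here is a set of 6 genes, Sparc, Adamts1, Adgrg1, Sgce, Pmp22 and Nav3, whose transcripts were far brighter in wild-type microglia than in wild-type macrophages sorted from the mouse brain after a stroke. They are 6 of the 19479 genes with a named transcript cluster on the array, and each has 1 cluster, which is the set of probes summarised to 1 value. They were chosen by their log2 intensity in WT microglia against WT macrophages, with no threshold stated, so their levels in wild-type microglia against the other wild-type cells are a description and were not tested. The study used male C57BL/6 mice of 8 to 10 weeks that lacked TREM1 (KO) or carried it (WT). TREM1 is a receptor of myeloid cells that amplifies inflammatory signalling. In all 6 groups the middle cerebral artery was occluded for 45 min, and myeloid cells of the ischemic hemisphere were sorted 48 h after reperfusion. There were 6 KO and 6 WT microglia arrays, 6 KO and 3 WT macrophage arrays, and 5 KO and 4 WT neutrophil arrays, 30 in all. Microglia were sorted as CD45 low and CD11b positive cells, and their gate is also labelled Ly6G positive. Macrophages were CD45 high, CD11b positive and Ly6G negative, and neutrophils CD45 high, CD11b positive and Ly6G positive. The labels call the arrays of a group biological replicates, and do not say how TREM1 was removed or whether animals were pooled.

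Microglia are the resident macrophages of the brain and settle there in the embryo, whereas the macrophages and neutrophils of an infarct largely enter from the blood. Cells meet the extracellular matrix in several ways: secreted matricellular proteins tune how cells attach to it, metalloproteases cut it, and membrane receptors and complexes bind it. SPARC is a secreted matricellular glycoprotein that binds collagen, and ADAMTS1 is a secreted metalloprotease that cuts the proteoglycans versican and aggrecan. ADGRG1, also called GPR56, is an adhesion G protein-coupled receptor that binds collagen III and transglutaminase 2. Sgce encodes epsilon-sarcoglycan, a membrane glycoprotein related to the sarcoglycans of the muscle dystrophin complex, and the gene is imprinted. The others are less directly matrix genes: PMP22 is a membrane protein with 4 transmembrane segments, best known from peripheral myelin, and NAV3 is a neuron navigator that binds microtubules. The label of a matrix and adhesion set therefore describes 4 of the 6 genes.

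In the RefSeq annotation of GRCm38.p6, Sparc lies on chr11:55394159-55420080, Adamts1 on chr16:85793827-85803113, Adgrg1 on chr8:94974756-95014208, Sgce on chr6:4674350-4747204, Pmp22 on chr11:63128982-63159547 and Nav3 on chr10:109681260-110455722. Nav3 spans 774 kb, against 9.29 kb for Adamts1. The RefSeq promoter windows of 4 of the 6 genes, the 250 bases upstream of a transcription start, are printed below because the genes shared an expression pattern and the windows let their sequences be compared. For Adgrg1, the start with most motif matches is given, and for Pmp22 the first of the 2 starts that tied for most, and capitals mark motif matches. Searched on both strands were TATAAA (the TATA box), GGGCGG (the GC box of SP factors), GAGGAA (an ETS-type motif of the PU.1 kind) and TGANTCA (the AP-1 motif). The windows are those of Sparc (chr11:55420081-55420330, minus strand, its sole start), Adamts1 (chr16:85803114-85803363, minus strand, its sole start), Adgrg1 (chr8:94984149-94984398, plus strand, the second of 2 starts) and Pmp22 (chr11:63131207-63131456, plus strand, the second of 4 starts).
Sparc: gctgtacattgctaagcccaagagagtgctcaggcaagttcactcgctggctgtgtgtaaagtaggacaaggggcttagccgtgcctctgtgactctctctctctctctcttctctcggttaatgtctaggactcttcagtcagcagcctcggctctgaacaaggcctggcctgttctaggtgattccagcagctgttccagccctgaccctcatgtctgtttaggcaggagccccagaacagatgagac
Adamts1: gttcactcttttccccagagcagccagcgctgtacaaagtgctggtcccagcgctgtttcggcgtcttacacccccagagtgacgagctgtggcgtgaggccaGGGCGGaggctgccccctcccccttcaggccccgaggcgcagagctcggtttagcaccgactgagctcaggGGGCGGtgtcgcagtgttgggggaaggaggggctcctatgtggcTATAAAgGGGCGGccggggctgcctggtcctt
Adgrg1: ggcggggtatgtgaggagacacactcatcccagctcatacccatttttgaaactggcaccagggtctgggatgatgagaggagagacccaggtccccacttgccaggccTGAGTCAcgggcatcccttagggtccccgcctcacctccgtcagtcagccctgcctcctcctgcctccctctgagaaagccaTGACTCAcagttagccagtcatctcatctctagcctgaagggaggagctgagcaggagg
Pmp22: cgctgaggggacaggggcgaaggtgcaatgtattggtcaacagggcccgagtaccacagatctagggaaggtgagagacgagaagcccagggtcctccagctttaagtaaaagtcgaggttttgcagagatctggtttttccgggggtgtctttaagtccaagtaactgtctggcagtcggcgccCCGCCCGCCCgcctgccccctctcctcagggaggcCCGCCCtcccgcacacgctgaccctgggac

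The 4 windows shared no motif that was searched. Adamts1 had TATAAA 32 bases before its start and GGGCGG at 25, 76 and 147 bases before it. Pmp22 held 3 GGGCGG matches on the other strand, read as CCGCCC, of which 2 overlapped, and start 4, not printed, also had 3. Adgrg1 held TGANTCA at 59 and 141 bases before the start. None of the 4 motifs lay in the Sparc window, and GAGGAA lay in none of the windows of the 4 genes. Over the 32851 listed starts of all genes, 12.4% of the windows held TATAAA, 32.7% GGGCGG, 23.3% GAGGAA and 6.75% TGANTCA. The GC content was 54% for Sparc, 65.6% for Adamts1, 59.2% for Adgrg1 and 61.2% for the Pmp22 window shown (73.6% for that of start 4), against a median of 52.4% over all windows. A match of letters is not a measured binding site.

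The median intensity of an array was 110 to 116 in KO microglia, 107 to 120 in WT microglia, 85.1 to 91.1 in KO macrophages, 83.7 to 86 in WT macrophages, 89.3 to 97.9 in KO neutrophils and 97.7 to 108 in WT neutrophils. Levels are given below as log2 intensity. A level under 6.69, the median of all cluster means, is called dim, since no array value gives the background. Each sorted cell type had the highest mean of the markers of its own label. The mean over 11 microglia markers, such as Sall1, Siglech and P2ry12, was 13.75 to 14.93 in KO microglia and 13.62 to 14.85 in WT microglia, against 9.11 to 9.71 in KO macrophages. All 11 were higher, and all 12 monocyte and macrophage markers lower, in KO microglia than in KO macrophages. Of all clusters 31.4% were higher and 11.8% lower there. Neutrophil markers averaged 12.44 to 13.69 in KO neutrophils, against 7.33 to 8.50 in KO macrophages. The KO neutrophils also carried monocyte and macrophage markers, at 11.94 to 12.40, against 13.79 to 14.45 in KO macrophages. Their microglia markers averaged 9.58 to 10.87. On KO microglia 2 the neutrophil markers averaged 9.75, against 6.24 to 7.75 on the other KO microglia arrays. Trem1 itself averaged 8.36 ± 0.68 in KO and 9.60 ± 1.02 in WT microglia (SD, n = 6 each), 13.47 ± 0.53 in KO (n = 6) and 13.96 ± 0.32 in WT macrophages (n = 3), and 15.98 ± 0.51 in KO (n = 5) and 17.20 ± 0.29 in WT neutrophils (n = 4). The extent of the deletion is not given in the labels, so these levels are no check of the genotype.

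Sparc, the secreted collagen-binding glycoprotein, was high on all microglia arrays. Its log2 level ran from 17.05 through a median of 17.21 to 17.62 in KO microglia and from 17.04 through 17.24 to 17.60 in WT microglia. In KO macrophages it ran from 10.55 through a median of 12.37 to 12.71, and the 3 WT macrophage arrays had 7.03, 7.04 and 10.60. The 2 microglia groups covered the same narrow range and every macrophage array lay well below it. Neutrophils were spread widely, with 13.66, 14.70, 14.63, 9.23 and 13.50 in KO neutrophils and 14.86, 12.21, 13.53 and 16.81 in WT neutrophils. WT neutrophil 4 came close to the microglia and KO neutrophil 4 fell among the macrophages. Because each array measured the RNA of many sorted cells, a lower level cannot be split into fewer expressing cells and less RNA per cell.

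Adamts1, the secreted protease, showed a wider spread within microglia and low levels elsewhere. Its level ran from 12.39 through a median of 13.33 to 14.31 in KO microglia and from 12.64 through 13.58 to 14.65 in WT microglia. KO macrophages had 5.28 to 6.24 with a median of 5.58, and WT macrophages had 5.81, 5.24 and 6.37. All 9 macrophage arrays were dim for the protease. KO neutrophils had 6.91, 8.90, 7.51, 5.88 and 6.74, and WT neutrophils 7.72, 5.50, 6.80 and 6.46. The neutrophil ranges of the 2 genotypes overlapped, and 1 KO and 2 WT neutrophil arrays were dim.

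Adgrg1, the adhesion receptor, ran from 12.75 through a median of 13.30 to 13.97 in KO microglia and from 12.82 through 13.20 to 14.06 in WT microglia. KO macrophages had 5.60 to 7.09 with a median of 6.27, and WT macrophages 6.00, 5.86 and 6.76. KO neutrophils had 7.38, 9.37, 8.60, 6.36 and 6.46, and WT neutrophils 8.65, 6.62, 7.49 and 6.98. The receptor was dim on 4 of 6 KO and 2 of 3 WT macrophage arrays, while KO neutrophil 2 and WT neutrophil 1 stood at the top of their groups. Sgce, the sarcoglycan, ran from 11.37 through a median of 11.93 to 12.47 in KO microglia and from 11.10 through 11.73 to 12.45 in WT microglia. KO macrophages had 4.61 to 5.13 with a median of 4.70, and WT macrophages 4.11, 4.28 and 4.31. KO neutrophils had 6.73, 8.67, 7.29, 4.78 and 5.22, and WT neutrophils 7.80, 5.69, 6.20 and 6.96. Every macrophage array was dim for Sgce, and the neutrophil arrays straddled the dim limit.

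Pmp22, the tetraspan membrane protein, was the most even of the 6 genes within microglia. Its level ran from 15.70 through a median of 15.93 to 16.26 in KO microglia, with an SD of 0.18, and from 15.72 through 16.01 to 16.12 in WT microglia, with an SD of 0.16. KO macrophages had 8.00 to 10.24 with a median of 8.95, and WT macrophages 7.74, 8.38 and 9.20. No array was dim for Pmp22. KO neutrophils had 12.94, 14.24, 13.35, 9.65 and 11.46, and WT neutrophils 13.86, 9.64, 10.89 and 13.72. Neutrophils of both genotypes thus reached from macrophage levels upward, but none reached the microglia range. Nav3, the microtubule-binding navigator, ran from 13.33 through a median of 13.70 to 14.13 in KO microglia and from 12.98 through 13.51 to 14.56 in WT microglia. KO macrophages had 5.02 to 5.63 with a median of 5.49, and WT macrophages 5.25, 5.66 and 5.65. KO neutrophils had 8.48, 8.53, 8.68, 6.64 and 7.47, and WT neutrophils 7.62, 6.49, 7.02 and 8.43. Macrophages were dim throughout for Nav3, and all but 1 KO and 1 WT neutrophil array lay above the dim limit.

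**Figure D1:**
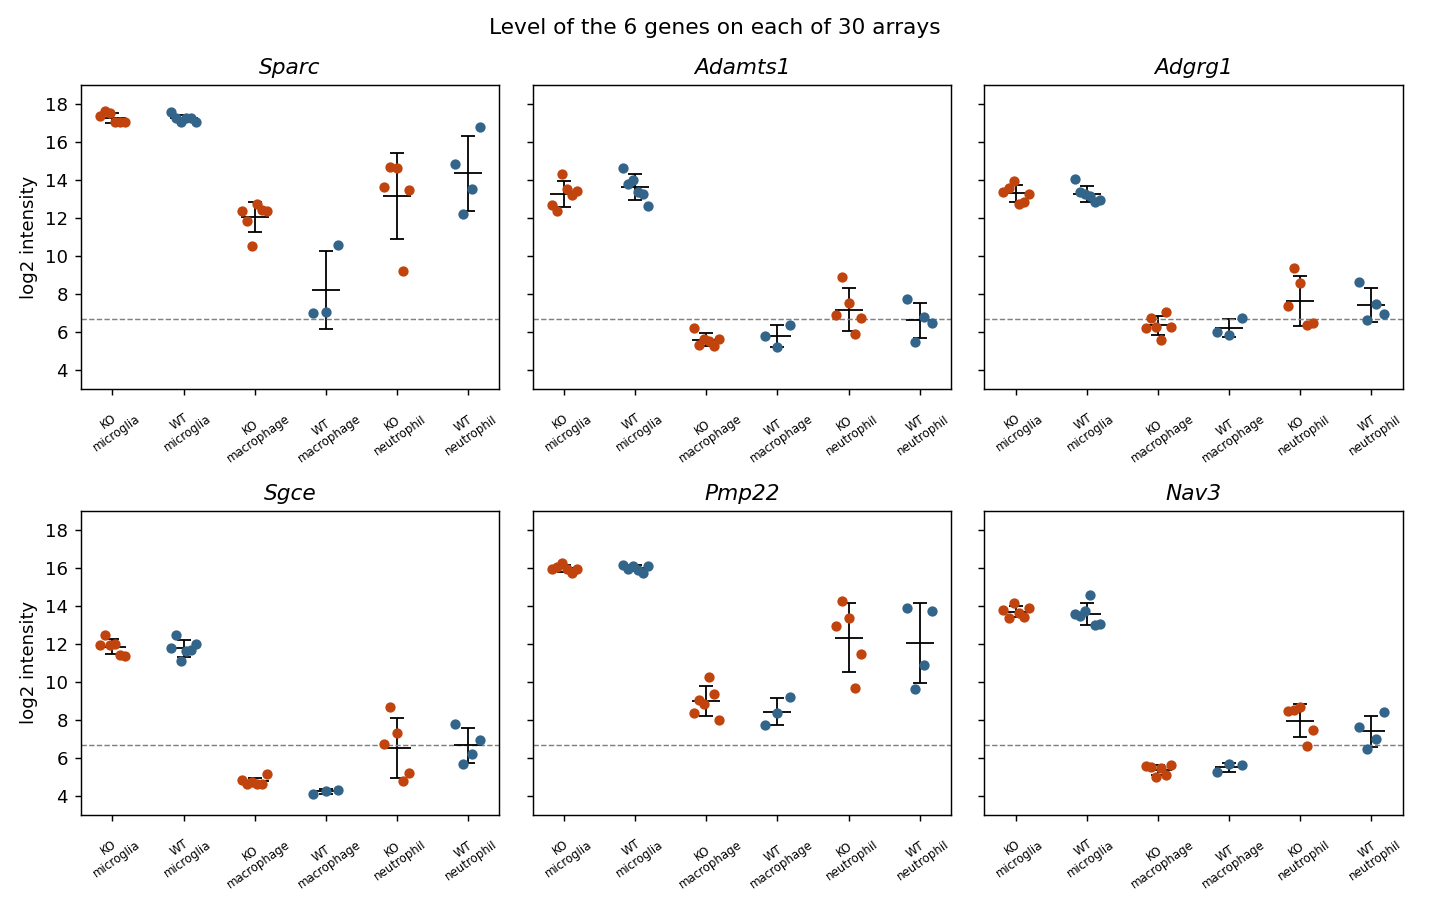
Log2 intensity of the 6 genes on each of 30 arrays, with the mean and SD of each group as bars, KO in red and WT in blue; the dashed line is the median of all cluster means, 6.69. Microglia form a high, tight band for each gene, macrophages lie lowest on average, and neutrophils lie between with a wide spread.

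For all 6 genes the order of group means put the 2 microglia groups on top, then the neutrophils, then the macrophages. The KO and WT microglia overlapped for each gene, and the lower of them exceeded the next group mean by 2.89 for Sparc, 3.64 for Pmp22, 5.10 for Sgce, 5.59 for Nav3, 5.63 for Adgrg1 and 6.08 for Adamts1, without overlap of arrays. Below the microglia, neighbouring groups in the order overlapped except KO over WT macrophages for Sgce and WT neutrophils over WT macrophages for Nav3. Among WT cells, which served to pick the genes, microglia exceeded macrophages by 9.02 log2 units for Sparc, 8.03 for Nav3, 7.81 for Adamts1, 7.53 for Pmp22 and for Sgce, and 7.05 for Adgrg1. These were places 1 to 5 and 9 among 22103 clusters. For that WT comparison 24.9% of all clusters were higher in microglia without overlap, which is given as background only. WT microglia exceeded WT neutrophils by 7.001 for Adamts1, 6.16 for Nav3, 5.83 for Adgrg1, 5.10 for Sgce, 3.94 for Pmp22 and 2.89 for Sparc.

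The KO arrays had no part in picking the genes, so they give a test of the cell type difference in other animals. The tests themselves were chosen with earlier results of these data known. All 6 genes were higher in KO microglia than in KO macrophages, against 31.4% of all clusters, and none overlapped, against 17.6% of all clusters. Nav3 was higher by 8.31 (SE 0.31, 317-fold, adjusted p = 8.78e-19, limma), the largest difference of all 22103 clusters. Nav3, Adamts1 and Sgce were dim on all 6 KO macrophage arrays and Adgrg1 on 4, so their folds and places are approximate. Adamts1 was higher by 7.66 (SE 0.40, 203-fold, adjusted p = 1.61e-15). Sgce was higher by 7.09 (SE 0.42, 136-fold), Pmp22 by 6.99 (SE 0.60, 127-fold) and Adgrg1 by 6.93 (SE 0.40, 122-fold), with adjusted p from 1.17e-14 for Adgrg1 to 8.33e-11 for Pmp22. These 5 genes held places 1, 4, 6, 8 and 9. Sparc was higher by 5.23 (SE 0.72, 37.5-fold, adjusted p = 7.19e-07) and held place 61, and KO macrophages were above the dim limit for it. The median over the 6 genes was 7.04, against 0.21 over all clusters, and 3.8% of clusters were higher by at least 4-fold. Scaling mattered for the background and not for the genes: the share of calls that were higher was 72.6% on the deposited values, 49.2% after quantile normalization and 34.5% after centring each array on its median, where the median over all clusters was -0.16. All 6 genes passed under each scaling, with differences of 4.87 to 7.94 after centring.

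Against KO neutrophils, KO microglia were again higher for all 6 genes, against 32% of all clusters, with no overlap of arrays, against 21%. The difference was 6.08 for Adamts1 (SE 0.42, adjusted p = 1.05e-12), 5.73 for Nav3 (SE 0.32, adjusted p = 1.25e-14) and 5.66 for Adgrg1 (SE 0.42, adjusted p = 3.76e-12). It was 5.32 for Sgce (SE 0.44), 4.13 for Sparc (SE 0.75) and 3.64 for Pmp22 (SE 0.63). Sparc and Pmp22, with an adjusted p of 4.73e-05 for Sparc and of 2.38e-05 for Pmp22, had the smallest differences of the 6. The median over the 6 genes was 5.49, against 0.20 over all clusters. Of all calls 71.2% were higher on the deposited values, 50.9% after quantile normalization and 45% after centring, and the 6 genes passed under each. In a limma fit on only these arrays all 6 genes passed too, with larger adjusted p, from 9.8e-09 for Nav3 to 0.000481 for Sparc. This comparison and the one with macrophages share the KO microglia arrays.

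KO macrophages were lower than KO neutrophils for 5 of the 6 genes, against 15.9% of all clusters. Pmp22 was lower by 3.35 log2 units (difference -3.35, SE 0.63, adjusted p = 0.000159), and Nav3 had a difference of -2.58 (SE 0.32, adjusted p = 4.85e-07), the one gene without overlap, against 10.3% of clusters. The difference was -1.77 for Sgce (SE 0.44, adjusted p = 0.00261), -1.58 for Adamts1 (SE 0.42, adjusted p = 0.00476) and -1.27 for Adgrg1 (SE 0.42, adjusted p = 0.0203). Sparc, at -1.10 (SE 0.75, adjusted p = 0.283), did not pass. Without KO neutrophil 4 the Sparc difference was -2.07 (adjusted p = 0.0123), and the Adgrg1 call was lost without KO neutrophil 2 (-0.83, adjusted p = 0.108), KO neutrophil 3 (-1.03, adjusted p = 0.0756) or KO macrophage 4 (-1.11, adjusted p = 0.0530), and in a fit on only these arrays (adjusted p = 0.0565). Adamts1, Sgce and Nav3 were dim on all KO macrophage arrays. Of the 5 KO neutrophil arrays, 1 was dim for Adamts1, 2 for Sgce and 1 for Nav3. The KO neutrophil mean of Sgce, 6.54, was itself under the dim limit, so the sizes of these differences are approximate. Of all calls 49.9% were higher on the deposited values and 61.4% after centring, and the same number of the 6 genes, 5, passed.

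**Figure D2:**
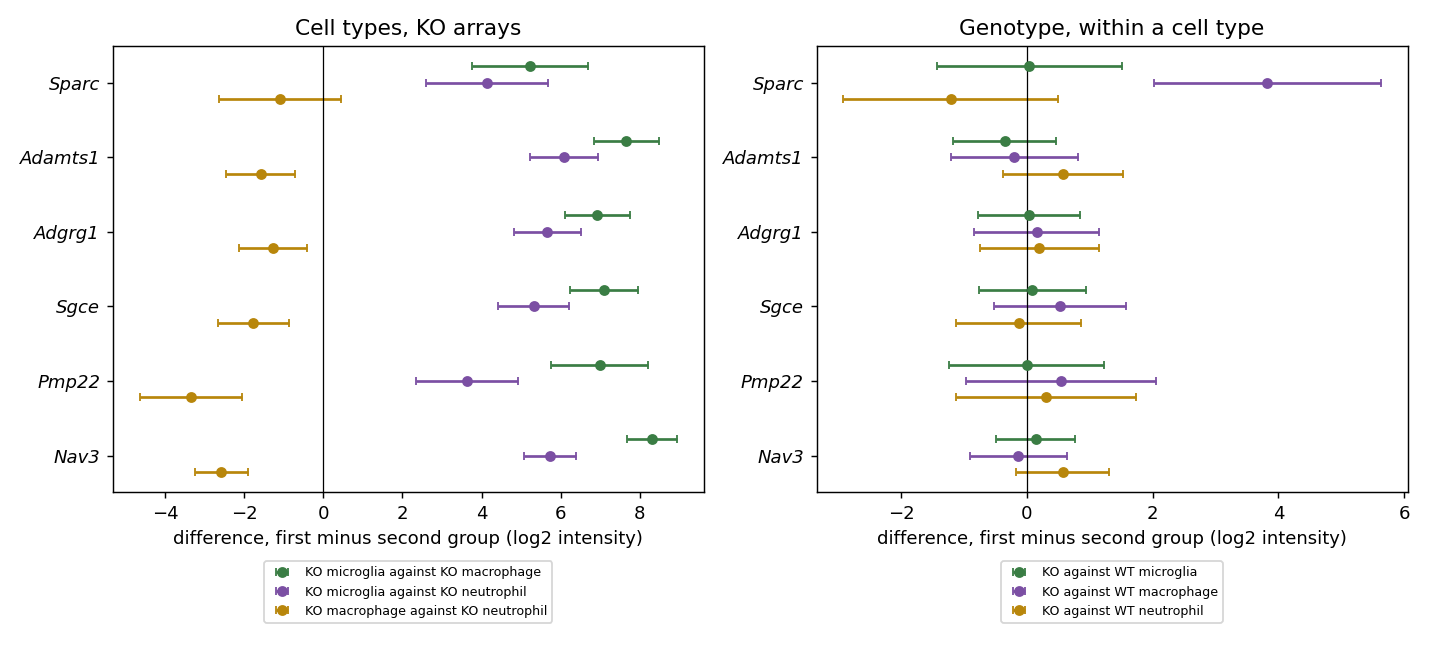
Differences in log2 intensity, first minus second group, with 95% confidence intervals from the model over 30 arrays, for cell types among KO arrays (left) and for KO against WT within a cell type (right). The microglia differences of all 6 genes lie far right of 0 on the left. On the right Sparc in macrophages has the largest difference, at 3.83, and did not pass (adjusted p = 0.376, limma). The WT macrophage arrays in that difference also served to pick Sparc, so its value and interval are a description.

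The neutrophil arrays differed among themselves in all 6 genes together. KO neutrophil 4 was the lowest KO neutrophil array for 6 of 6 genes and for 22.6% of all clusters. KO neutrophil 2 was the highest for 5 of 6 genes and for 18.9% of clusters. Among WT neutrophils, replicate 2 was the lowest for 6 of 6 genes and for 25.1% of clusters, and replicate 1 the highest for 4 of 6 and for 20.5%. The mean of 11 microglia markers was 9.58 on KO neutrophil 4 and 10.87 on KO neutrophil 2, the lowest and highest of the KO neutrophil arrays, and 9.82 on WT neutrophil 2 and 10.58 on WT neutrophil 1, the lowest and highest of the WT ones. The single markers did not all follow their mean. KO neutrophil 4 was lowest for 6 of 11, and KO neutrophils 2 and 3 were highest for 4 each. WT neutrophil 2 was lowest for 5 but highest for 4, and WT neutrophil 1 highest for 5 but lowest for 4. The neutrophil markers averaged 13.69 on KO neutrophil 4, the highest KO neutrophil array, and 12.44 to 13.27 on the others. They averaged 16.12 on WT neutrophil 2 and 13.17 to 13.97 on the other WT neutrophil arrays. Sparc and Nav3 were highest on WT neutrophil 4 among the WT neutrophils, at 16.81 and 8.43. On that array 11 fibroblast genes averaged 9.64, against 7.44 to 8.01 on the other WT neutrophil arrays and 6.78 to 7.77 on the KO neutrophil arrays. Other lists were high on WT neutrophil 4 too. There 14 cartilage genes averaged 9.03, against 6.33 to 6.85 on the other WT neutrophil arrays. The 20 matricellular genes other than Sparc averaged 8.80, against 7.14 to 7.54. WT neutrophil 4 was the highest WT neutrophil array for 36.4% of all clusters and the lowest for 28.3%. The part of other cells in these levels was not tested.

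**Figure D3:**
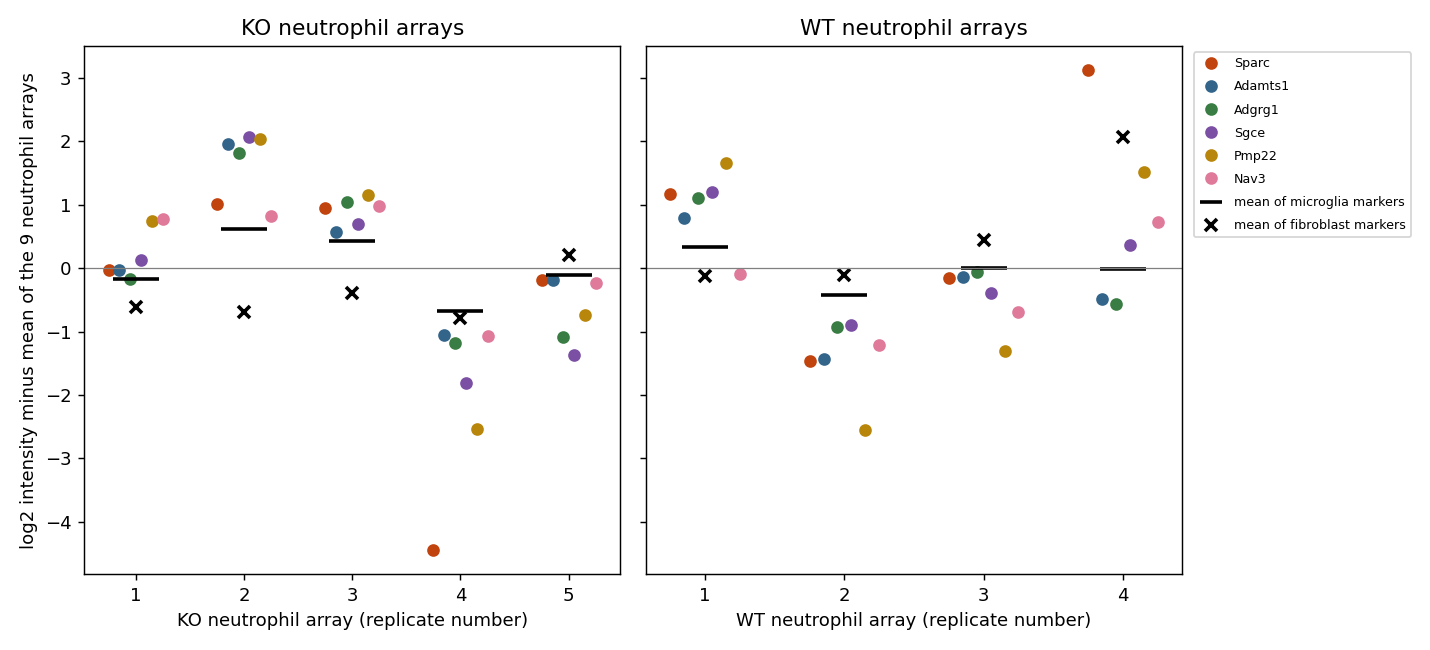
Log2 intensity of the 6 genes on each of 5 KO and 4 WT neutrophil arrays, each gene less its own mean over the 9 arrays, with the mean of microglia markers (bars) and of fibroblast markers (crosses) treated alike. All 6 genes lie below 0 on KO neutrophil 4 and WT neutrophil 2 and above 0 on KO neutrophils 2 and 3.

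Whether loss of TREM1 altered these genes was compared within each cell type. In microglia no gene of the 6 passed, and 0 of 22103 clusters did with limma (0%), with 646 at an unadjusted p under 0.05. The difference, KO minus WT, was 0.03 for Sparc, -0.35 for Adamts1, 0.03 for Adgrg1, 0.09 for Sgce, -0.005 for Pmp22 and 0.14 for Nav3, with an adjusted p of 1 for each. In a fit on the microglia arrays alone the 95% intervals were tightest for Pmp22, -0.28 to 0.27, and for Sparc, -0.28 to 0.35. They were -0.46 to 0.53 for Adgrg1, -0.39 to 0.56 for Sgce, -0.37 to 0.64 for Nav3 and -1.06 to 0.36 for Adamts1. No difference was detected with 6 arrays a group, and these intervals give the sizes that the values leave possible. The WT arrays of this comparison and of the one in macrophages also served to pick the genes.

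In macrophages 0 of the 6 genes passed with limma, against 0.00452% of all clusters, which is 1 cluster. The difference for Sparc, KO minus WT, was 3.83 (SE 0.88, adjusted p = 0.376). Sparc was chosen by low levels on these WT macrophage arrays, among others, which favours a KO level above the WT one, so this difference and the values drawn from it are a description. The KO arrays ran from 10.55 to 12.71 and the WT arrays had 7.03, 7.04 and 10.60, so the groups overlapped by 1 WT array. Without WT macrophage 3, the one with 10.60, the difference was 5.01 with an adjusted p of 0.0381. Of 11 markers of fibroblasts, a cell type that makes SPARC, 0 passed, and their median difference was 0.23, with a range of -0.22 to 4.55. Their mean level did not overlap between the groups, at 7.30 to 7.67 in KO macrophages and 5.96 to 6.83 in WT macrophages. Dcn, the collagen-binding proteoglycan decorin, had the largest difference, at 12.24 in KO and 7.69 in WT macrophages (adjusted p = 0.376, limma). The absence of overlap was not particular to fibroblast markers. The mean of 14 cartilage genes was 6.40 to 6.83 in KO and 5.66 to 6.00 in WT macrophages. For 20 matricellular genes other than Sparc it was 6.79 to 7.14 in KO and 6.36 to 6.77 in WT macrophages. Other list means did overlap, such as those of the microglia and endothelial markers. The part of fibroblasts in the Sparc difference was not tested. Sgce had 4.61 to 5.13 in KO macrophages and 4.11 to 4.31 in WT macrophages, a difference of 0.53 without overlap, against 1.88% of all clusters, but all arrays were dim and the adjusted p was 0.998. The differences of Pmp22 (0.54), Adgrg1 (0.15), Nav3 (-0.14) and Adamts1 (-0.20) did not pass.

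In neutrophils 19.9% of all clusters passed between the genotypes, and 0 of the 6 genes did. The difference, KO minus WT, was -1.21 for Sparc (SE 0.83, adjusted p = 0.31), 0.57 for Adamts1 (adjusted p = 0.398) and 0.57 for Nav3 (adjusted p = 0.265). It was 0.30 for Pmp22 (adjusted p = 0.786), 0.20 for Adgrg1 (adjusted p = 0.787) and -0.13 for Sgce (adjusted p = 0.873). The ranges of KO and WT neutrophils overlapped for each gene. A fit on the neutrophil arrays alone gave wide 95% intervals, -3.87 to 1.45 for Sparc, -2.11 to 2.71 for Pmp22 and -1.80 to 1.55 for Sgce. For Adgrg1 the interval was -1.26 to 1.66, for Adamts1 -0.74 to 1.88 and for Nav3 -0.53 to 1.67. Thus no difference was detected, and large ones in either direction remain possible. The change with genotype in microglia minus that in macrophages was -3.79 for Sparc (SE 1.14, adjusted p = 1), which also rests on the WT macrophage arrays that chose it. No cluster passed that test with limma (0%). For microglia minus neutrophils it was 1.24 for Sparc (adjusted p = 0.523), and 0 of the 6 genes passed, against 5.79% of all clusters.

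The relatives and partners of the 6 genes were read in KO microglia against KO macrophages. There 31.4% of all clusters were higher and 11.8% lower, which is the background for each list below. Where a list holds one of the 6 genes, that gene is in its counts and median and raises the number called higher. Sparc stood among 21 measured matricellular genes, of which 6 were higher and 1 lower, with a median difference of 0.22. After centring 4 were lower. Postn, the matricellular protein periostin, was 3.78 higher (11.60 in KO microglia and 7.82 in KO macrophages, adjusted p = 5.5e-06). Thbs1, which encodes thrombospondin 1, lay the other way at -6.87 (9.62 in KO microglia and 16.49 in KO macrophages, adjusted p = 8.51e-17). Sparcl1, the closest named relative of Sparc, did not pass at 1.05 (adjusted p = 0.189). Of 20 collagen, laminin and other basement membrane genes 6 were higher and 3 lower, with a median of 0.18, and 5 were lower after quantile normalization or centring. Nid2, encoding the basement membrane protein nidogen 2, was 1.88 higher, and Agrn, encoding agrin, 0.97 higher, a call lost after quantile normalization (adjusted p = 0.055). The fibrillar collagen genes Col1a1 (0.19, adjusted p = 0.359) and Col3a1 (0.29, adjusted p = 0.319) did not pass.

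Adamts1 was one of 18 measured ADAMTS protease genes, of which 8 were higher and 0 lower, with a median of 0.15. Adamts16 was next, at 2.01 (7.48 in KO microglia and 5.47 in KO macrophages, adjusted p = 2.48e-11). The other 6 higher ones had differences of 0.37 to 0.88 and mostly dim levels, and after centring 4 were higher and 6 lower. Among 5 substrates and inhibitors, Vcan, which encodes versican, was lower at -7.17 (7.37 in KO microglia and 14.53 in KO macrophages, adjusted p = 3.84e-15). Acan, encoding aggrecan, did not pass at -0.66 (adjusted p = 0.326). The protease and its substrate versican thus had opposite cell type differences.

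Adgrg1 was one of 26 measured adhesion G protein-coupled receptor genes, of which 8 were higher and 3 lower, with a median of 0.11, and after centring 3 were higher and 7 lower. Adgra3 (3.37, adjusted p = 7.23e-16) and the latrophilin gene Adgrl1 (2.57, adjusted p = 1.88e-10) were higher. Adgrg6 (-4.37, adjusted p = 6.75e-14) and Adgre4 (-4.23, adjusted p = 3.26e-11) were lower. Adgre1, which encodes a long-used macrophage surface marker, did not pass at 0.45 (adjusted p = 0.0821). Of 12 measured ligand, partner and signalling genes of ADGRG1, 4 were higher and 6 lower, with a median of -0.30. Cd81, a tetraspanin that associates with the receptor, was 5.60 higher (16.82 in KO microglia and 11.22 in KO macrophages, adjusted p = 2.83e-14), and the tetraspanin gene Cd9 was 1.99 higher. Tgm2, the ligand transglutaminase 2, was lower at -1.51 (adjusted p = 4.12e-05).

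Sgce stood among 15 measured sarcoglycan and dystrophin complex genes, of which 6 were higher and 1 lower, with a median of 0.37, and 3 were lower after quantile normalization or centring. Dag1, encoding the dystroglycan receptor for laminin, was 2.11 higher (12.45 in KO microglia and 10.34 in KO macrophages, adjusted p = 9.98e-07). Sgcb, beta-sarcoglycan, was 2.96 higher (adjusted p = 1.54e-06), and Sspn, sarcospan, 1.79 higher. Sgcd, delta-sarcoglycan, did not pass at -0.32 (adjusted p = 0.0944), and Dmd, dystrophin, was dim in both groups. Sgce also has genomic neighbours in an imprinted region of chromosome 6. Peg10, a paternally expressed gene separated from Sgce by 101 bases, was 3.18 higher (8.08 in KO microglia and 4.90 in KO macrophages, adjusted p = 2.02e-10). The list held 6 chosen neighbours, the farthest 517415 bases from Sgce, and not every gene of the region. Of these 6, 5 were higher and none lower, against 31.4% and 11.8% of all clusters, with a median of 2.06. Besides Peg10 they were Ppp1r9a at 3.44, Pon3 at 2.69, Pon2 at 1.43 and Casd1 at 0.52.

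Pmp22 was one of 7 measured genes of its membrane protein family, of which 3 were higher and 2 lower, with a median of 0.52. Perp was 1.81 higher (adjusted p = 1.7e-09), while Emp1 (-4.21, adjusted p = 9.87e-12) and Emp3 (-1.33, adjusted p = 1.34e-07), relatives with the same 4 membrane segments, were lower. Emp2 was 1.33 higher (adjusted p = 0.0331), a call lost after quantile normalization (adjusted p = 0.213), after centring (adjusted p = 0.116) and without KO microglia 1, KO microglia 5 or KO macrophage 3. Nav3 stood among 10 navigator and microtubule plus-end genes, of which 5 were higher and 0 lower, with a median of 0.70, and 3 were higher after centring. Clasp2, which stabilises microtubule ends, was 1.37 higher (adjusted p = 0.00047), and Mapre3, encoding an end-binding protein, 1.11 higher. Nav2 was 1.04 higher (adjusted p = 0.0226), a call lost after centring (adjusted p = 0.149) and without KO microglia 1, KO microglia 3 or KO macrophage 4, and Nav1 did not pass at 0.44 (adjusted p = 0.235). The difference of Nav3, 8.31, thus exceeded those of both other navigators by over 7 log2 units.

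**Figure D4:**
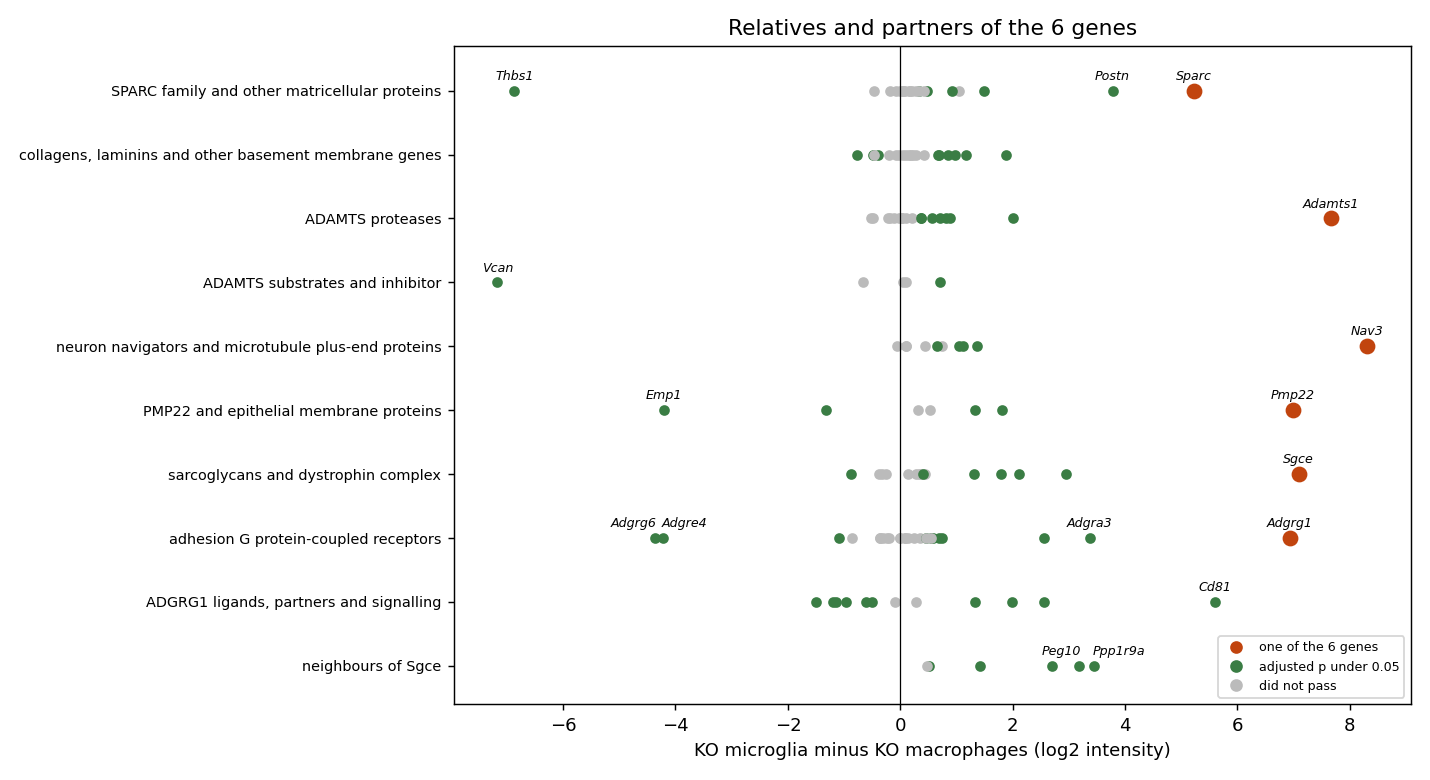
Difference in log2 intensity, KO microglia minus KO macrophages, of each gene in 10 lists of relatives and partners, with the 6 genes in red, other genes past an adjusted p of 0.05 in green and the rest in grey. Each of the 6 genes lies at the far right of its own list, and Thbs1, Vcan, Emp1, Adgrg6 and Adgre4 lie at the far left of theirs.

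The genes most like each of the 6 were found by centring every profile on its own mean over the 30 arrays and taking the root mean square difference, over 18440 other genes. Adgrg1 was nearest to Siglech, a microglial lectin (0.52 log2 units), Sgce (0.57) and Sall1, a transcription factor of microglia (0.61). Adamts1 was nearest to Siglech (0.57), Adgrg1 (0.65) and Nav3 (0.72). Nav3 was nearest to Adamts1 (0.72), Siglech (0.73) and Sgce (0.76), and Sgce to Adgrg1 (0.57), Gpr34 (0.72) and Nav3 (0.76). These 4 genes thus lay close to each other and to known microglia markers. Pmp22 was nearest to Mras (0.89), Sgce (0.94) and Plpp1 (0.98). Sparc was farthest from the rest, with Pmp22 (1.22), Plpp1 (1.24) and Fkbp9 (1.40) as its nearest genes. The 30 arrays share the cell type difference and include the WT microglia and WT macrophage arrays that chose the 6 genes. Likeness among the 6 and to microglia markers follows largely from that choice, and is a description only.

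Markers of other cells that are known to make SPARC were read on the same arrays, and their part in its level was not tested. The 12 endothelial markers averaged 6.13 to 6.41 in KO microglia and 5.80 to 6.28 in WT microglia, against 6.74 to 6.85 in KO macrophages, and 9 of them were dim in both microglia groups. Yet 3 were higher and 2 lower in KO microglia than in KO macrophages, with a median difference of -0.03 and a range of -7.84 to 1.21. The 12 pericyte and smooth muscle markers averaged 6.27 to 6.62 in KO microglia, against 6.47 to 6.72 in KO macrophages, with 4 higher and 4 lower. The endothelial gene Cldn5 was dim, at 5.14 in KO microglia and 4.98 in WT microglia, and the astrocyte gene Gfap was dim at 5.19 in KO microglia and 5.31 in WT microglia. The 12 astrocyte markers averaged 5.72 to 6.57 in KO microglia and 5.80 to 6.45 in WT microglia, against 5.77 to 6.06 in KO macrophages. Of them 8 were dim in KO microglia and 9 in WT microglia. In KO microglia 3 were higher and 1 lower than in KO macrophages, against 31.4% and 11.8% of all clusters. The glutamate transporter gene Slc1a3 was 2.32 higher (6.45 in KO microglia and 4.13 in KO macrophages, adjusted p = 5.55e-09, limma). Fibroblast genes averaged 6.71 to 7.68 in KO microglia and 6.53 to 7.72 in WT microglia, with 6 of 11 dim and with Dcn at 11.18 in KO microglia and 12.24 in KO macrophages. For Pmp22, the oligodendrocyte markers averaged 5.62 to 5.88 in KO microglia and 5.51 to 5.79 in WT microglia, against 5.14 to 5.33 in KO macrophages. Of these 10 markers 8 were dim in both microglia groups, Mbp and Mal being the others. In KO microglia 5 of the 10 were higher than in KO macrophages, against 31.4% of all clusters, by up to 1.45 for Mag. The median difference of these markers was 0.475. Their part in the level of Pmp22 was not tested.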

How the data were processed

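RNA of the sorted cells was hybridised to Affymetrix Clariom HT mouse arrays, using RNA with an integrity number above 7.5, per the labels' protocols. The intensities deposited by the authors were linear values made with RMA, per the submitters' processing notes. RMA subtracts background, scales the arrays to each other and combines probes. The RMA version and the arrays scaled together are not given in the sources used here. The log2 of the 22103 clusters on 30 arrays was taken with no pseudocount and no filter, and symbols came from the platform annotation, with 19508 clusters of 1 symbol and 2595 not annotated. No background level is given per array, so the number of arrays and the spread between them limit precision.

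All clusters and arrays entered 1 linear model of group means (limma 3.58.1, R 4.3.3), which left 24 residual degrees of freedom. The call threshold was an adjusted p (Benjamini-Hochberg, over all clusters of a comparison) of 0.05, and every adjusted p in the text is from limma. The 6 genes, the 23 gene lists (293 genes, 276 measured) and the tests were chosen with earlier results of these data known. The named genes were the 6, up to 4 genes of each list with the smallest p in KO microglia against KO macrophages, and the 3 genes most like each of the 6. Genes named beyond these, such as Dcn, Sparcl1, Nav1, Sgcd and Col1a1, were chosen after their values were seen. Sequences were taken from RefSeq (GRCm38.p6), which gave promoters for 4 of the 6 genes. Alternatives were a fit with a replicate block, a fit on only the arrays compared, leave-one-out fits, quantile normalization (all arrays, or each cell type apart), 1 cluster per gene, array weights, centring on the median, a trended robust prior, and removal of the dimmest 25% of clusters. Deviations of arrays with the same replicate number had correlations of -0.20 to 0.26, both extremes being between KO and WT neutrophils. Between KO microglia and KO neutrophils 3 of 5 arrays matched best with their own number. It was 0 of 6 for KO microglia and KO macrophages and 0 of 5 for KO macrophages and KO neutrophils. These values cannot settle whether equal numbers share an animal, and the main fit treated arrays as unpaired. The fit was tested on simulated data. Plots were made in Python 3.11.15 (matplotlib 3.10.9).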

Additional observations from a re-analysis of the deposited data

Results flagged for a closer look

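Sparc on KO neutrophil 4 was far from the other arrays of its group, at a log2 level of 9.23, with the nearest KO neutrophil array at 13.50 and the highest at 14.70. The gap to the nearest array was 0.78 of the range of the group, above the critical value of 0.71 for 5 arrays. It was the only 1 of 30 sets of values tested, and chance alone flags about 1 in 20. The same array was the lowest KO neutrophil array for each of the 6 genes and had the lowest mean of microglia markers, 9.58.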

How the results depend on the processing

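The number of the 6 genes that passed in each comparison was the same under every alternative that kept all arrays, except that 4 rather than 5 passed in KO macrophages against KO neutrophils in a fit on only these arrays and with the replicate block. It was also the same with KO microglia 2 and 4 both left out, a setting chosen after seeing the data. With each array left out in turn it was 6 to 6 for KO microglia against KO macrophages and against KO neutrophils, 4 to 6 for KO macrophages against KO neutrophils, 0 to 1 for KO against WT macrophages, and 0 to 0 for the other genotype comparisons. The 1 was Sparc without WT macrophage 3. With the replicate number as a block, a pairing that the labels do not give, the gene lost was Adgrg1, which in KO macrophages against KO neutrophils was -1.25 (adjusted p = 0.0559). Differences that changed sign were all small and had not passed: Bcan at -0.085 after quantile normalization and -0.27 after centring, Sgce in KO against WT microglia at -0.10 without KO microglia 2 and 4, and Sgce in KO against WT neutrophils at 0.29 with array weights and 0.20 with the replicate block. With array weights the change with genotype in microglia less that in macrophages was 0.16 for Adamts1, and that in microglia less neutrophils was -0.28 for Sgce. Leaving out single arrays gave KO minus WT differences on both sides of 0 in macrophages for Adamts1 (-0.48 to 0.08) and Adgrg1 (-0.018 to 0.43), in microglia for Adgrg1 (-0.10 to 0.19), Pmp22 (-0.064 to 0.048), Sgce (-0.05 to 0.22) and Sparc (-0.034 to 0.11), and in neutrophils for Adgrg1 (-0.24 to 0.60), Pmp22 (-0.49 to 0.97) and Sgce (-0.66 to 0.31). It did so for the change in microglia less macrophages for Adamts1 (-0.43 to 0.13) and Adgrg1 (-0.40 to 0.049), and for microglia less neutrophils for Adgrg1 (-0.57 to 0.27), Pmp22 (-0.97 to 0.49) and Sgce (-0.23 to 0.74). The cause was not tested. In KO microglia against KO macrophages, quantile normalization gave 2 lower matricellular genes rather than 1, and 5 higher and 2 lower ADAMTS genes rather than 8 and 0. Leaving out the dimmest clusters, with fewer genes tested, left 3 basement membrane and 4 ADAMTS genes higher. The planned use of another cluster of the same gene could not be run, since each gene has 1 cluster. With 3 WT macrophage arrays and group means in the dim range for 4 of the 6 genes there, sizes of differences against macrophages are approximate.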
